A study of Mus musculus with 18 samples.

Results

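The respiratory chain passes electrons from NADH and succinate through complexes I to IV of the inner mitochondrial membrane to oxygen, and ATP synthase uses the proton gradient that this builds. A small core of its subunits is encoded by the mitochondrial genome (chrM) and made on mitochondrial ribosomes, while all other subunits are encoded in the nucleus, made in the cytoplasm and imported. Complexes I, III and IV and ATP synthase therefore need transcripts of both genomes, whereas complex II is encoded by nuclear genes alone.

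The 54 respiratory chain genes described here were chosen by name, 13 from chrM and 41 from the nuclear genome, out of 55401 genes in the mRNA-seq count tables. The nuclear genes comprised 27 of complex I, 4 of complex II, 5 of complex III and 5 of complex IV. The mRNA-seq compared an XPO4 knockout (KO) line, made by CRISPR/Cas9 in the mouse fibroblast line NIH/3T3, with the wild-type (WT) cells, with 3 libraries of each. XPO4, or exportin 4, carries proteins out of the nucleus, and the study examined its part in the export of circular RNAs. The KO was 1 cell line, so an effect of the knockout and other differences of that line cannot be told apart. No source used here says whether replicates were separate cultures, and p-values then measure only the spread between these libraries. The circRNA-seq part held 12 libraries, 2 each of whole-cell, cytoplasmic and nuclear RNA from either genotype.

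Genotypes were taken from the sample titles. The column heading inside all 6 mRNA-seq tables names the other genotype, and if the headings were right, every mRNA-seq direction given here would be reversed. The targeted gene did not settle this. Xpo4 was at 33.0, 31.5 and 31.1 CPM (TMM-normalised counts per 1000000) in WT and at 39.7, 28.3 and 40.3 CPM in KO, a log2 fold change of 0.18 (SE 0.110, adjusted p = 0.193) with overlapping groups. Without KO replicate 2, which stood apart, the log2 fold change was 0.34 and passed the test (adjusted p = 0.000252), so that the targeted gene was then higher in the libraries titled KO. The extraction protocol in the labels speaks of blood, whereas every sample is labelled as NIH/3T3, so markers were checked. The 8 fibroblast markers summed to 8495 to 9035 TPM (a level per length, scaled to 1000000 in a library) in WT and 8515 to 9407 TPM in KO. The 12 markers of other cell types summed to 14.0 to 20.5 TPM in WT and 9.09 to 11.7 TPM in KO, with Epcam, Krt18, Myod1, Rbfox3 and Alb at 0 in all 6 libraries. Most of this sum was the haematopoietic marker Cd68, at 12.1 to 18.5 TPM in WT and 7.72 to 10.3 TPM in KO. The leukocyte gene Ptprc was at 4.77 to 5.42 CPM in WT and 1.23 to 1.79 CPM in KO. Cd68 and Ptprc were called lower in KO (adjusted p = 0.00854 and 1.03e-05), and the muscle gene Des higher (adjusted p = 0.0363). Des held only 8, 11 and 8 reads in WT against 12, 23 and 15 in KO. Its call was lost under several settings, among them DESeq2 (adjusted p = 0.145) and the fit without KO replicate 2 (adjusted p = 0.187). Libraries held 19529104 to 22057323 counted reads in WT and 16974062 to 17922696 in KO. KO replicate 2 stood apart, with a mean chi-square per gene of 10.6 and 12.3 against the other KO libraries, where all other pairs within a genotype lay between 3.05 and 4.98.

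None of the 13 mitochondrial genes had a counted read. The complex I genes mt-Nd1, mt-Nd2, mt-Nd3, mt-Nd4, mt-Nd4l, mt-Nd5 and mt-Nd6, the cytochrome b gene mt-Cytb of complex III, the catalytic core genes mt-Co1, mt-Co2 and mt-Co3 of complex IV, and mt-Atp6 and mt-Atp8 of ATP synthase were all listed at 0 in each of the 6 libraries. The other 24 genes on chrM, the rRNA and tRNA genes, were also listed at 0. Counting error alone would put the limit of a count of 0 (3 reads) at 0.136 to 0.177 CPM by library total, but with a whole genome at 0 this limits only what was counted, not what the cells expressed. The comparison of mitochondrial with nuclear subunits, within these libraries or between genotypes, could therefore not be made from the counts.

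Reads of the mitochondrial sequence can also match its copies in the nuclear genome. The longest near-identical copy lay at chr1:24611535-24616188 (mm10) and matched chrM positions 6390 to 11042 over 4654 aligned bases at 99.936% identity, with 2 mismatches and 1 extra base. It covers the end of mt-Co1, the whole of mt-Co2, mt-Co3, mt-Atp6, mt-Atp8, mt-Nd3 and mt-Nd4l and the beginning of mt-Nd4. One mismatch was A6393T in mt-Co1 and the other T9461C in mt-Nd3, each written as the chrM base, the chrM position and the base of the copy. The stretches around T9461C and around the extra base, at chrM position 9820 in the tRNA gene mt-Tr, are shown because over the rest of the copy, A6393T aside, a read cannot be assigned to either place. All 4 sequences are read along the mitochondrial gene strand of GRCm38, and capitals mark the base that differs. In the run of A, the place of the extra base is a convention of the alignment. The chrM sequence there is 1 base shorter than its label and begins 1 base after the first position given.
chrM 9431 to 9491: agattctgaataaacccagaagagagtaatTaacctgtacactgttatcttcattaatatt
chr1:24613087-24613147, minus strand: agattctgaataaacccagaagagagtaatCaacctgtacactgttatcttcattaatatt
chrM 9790 to 9850: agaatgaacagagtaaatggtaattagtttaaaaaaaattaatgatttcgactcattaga
chr1:24612727-24612787, minus strand: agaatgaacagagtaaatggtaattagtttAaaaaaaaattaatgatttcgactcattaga

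All 7 annotated genes in this chromosome 1 copy rose in KO. Their reads summed to 3124, 3672 and 4345 in the WT libraries against 7292, 7227 and 7682 in the KO libraries, or 0.0157% to 0.0197% of counted reads in WT and 0.0403% to 0.0453% in KO, without overlap. Among all 14688 genes tested with edgeR's quasi-likelihood test, 48.7% passed an adjusted p of 0.05, 25.1% upwards and 23.6% downwards, and every KO library lay above every WT library in 29.1%. Whether these reads came from the copy or from mitochondrial RNA cannot be told apart. Reads with several matches were not counted, and the sources used here do not say whether chrM was part of the mapping reference.

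Gm28661, which matches the complex IV gene mt-Co2, had 703, 903 and 1012 reads in WT against 2540, 2328 and 2171 in KO. Its log2 fold change was 1.65 (SE 0.0908, adjusted p = 8.98e-09), or 3.13-fold. Gm28437, which matches mt-Co3, had 432, 466 and 531 reads in WT against 893, 1215 and 1136 in KO (log2 fold change 1.41, SE 0.107, adjusted p = 2.13e-07). These matches to complex IV genes moved the most, and the mt-Co1 match Gm29216 followed, with 407, 364 and 648 reads in WT against 1101, 904 and 894 in KO (log2 fold change 1.26, SE 0.135, adjusted p = 5.4e-06). The match to the ATP synthase gene mt-Atp6, Gm10925, had 781, 983 and 1061 reads in WT against 1329, 1405 and 1735 in KO, a log2 fold change of 0.89. The complex I matches were Gm28439 (mt-Nd4), Gm10222 (mt-Nd4l) and Gm28438 (mt-Nd3), with log2 fold changes of 1.15, 1.03 and 0.76. None of the 7 genes had overlapping groups. Gm10222 was added by its position after the values were seen. The median log2 fold change of all 885 tested genes on chromosome 1 was -0.21. Without KO replicate 2 the 7 log2 fold changes lay between 0.78 and 1.67, and all still passed the test.

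**Figure D1:**
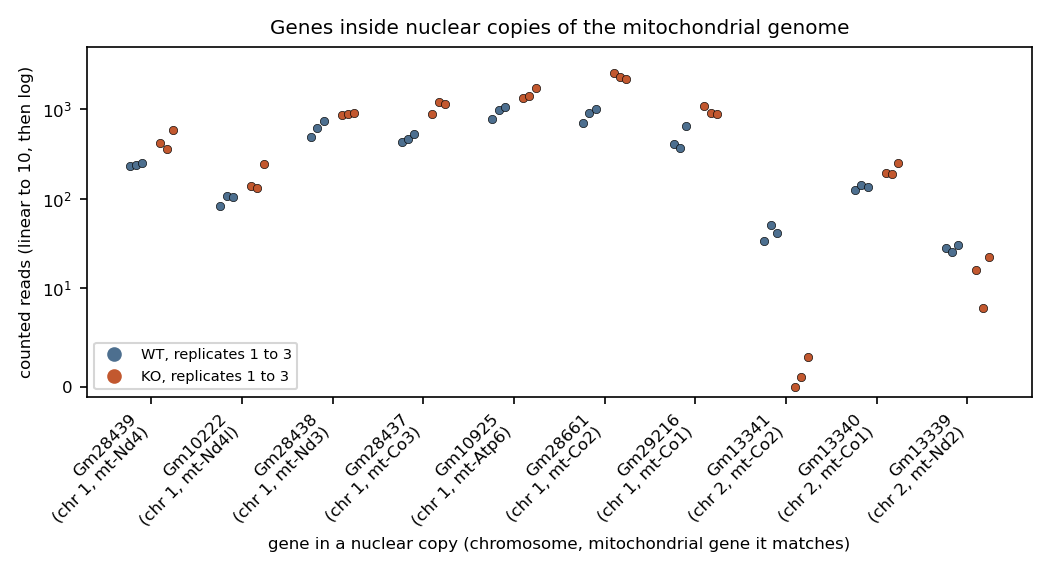
Counted reads (y axis, linear to 10 and logarithmic above) of the genes inside nuclear copies of chrM on chromosomes 1 and 2 that were tested, with the mitochondrial gene each matches; points are single libraries, WT in blue and KO in orange. All 7 chromosome 1 genes lie higher in KO in every library, whereas Gm13341 on chromosome 2 has 33 to 50 reads in WT and 0 to 3 in KO.

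A less identical copy at chr2:22587288-22590534 (97.362% over 3260 aligned bases) did not move as a unit. Gm13340, which matches mt-Co1, had 124, 142 and 136 reads in WT against 193, 188 and 252 in KO and rose by 0.88 on the log2 scale (SE 0.149, adjusted p = 0.000312). Gm13341, which like Gm28661 matches mt-Co2, fell, with 33, 50 and 41 reads in WT against 0, 1 and 3 in KO (adjusted p = 1.43e-05). The mt-Nd2 match Gm13339 had 28, 25 and 30 reads in WT against 16, 8 and 22 in KO and did not pass the test (adjusted p = 0.165). These chromosome 2 genes were described after their values were seen. The 2 matches of mt-Co2 thus moved in opposite directions, whereas the 2 matches of mt-Co1 both rose.

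All 41 nuclear subunit genes passed the filter on low counts, with 166 to 7594 reads in a library. In KO, 15 of them rose and 0 fell, and 26 did not pass the test. That is 36.6% against the 25.1% of all tested genes that rose, and 0 genes against the 23.6% that fell. At an unadjusted p under 0.05, 18 nuclear subunit genes were higher and 0 were lower. DESeq2 called 14 higher and 0 lower. The median log2 fold change was 0.15 (quartiles 0.08 and 0.35), against -0.00 over all genes tested, and 35 of 41 log2 fold changes were positive against 49.7% of all genes. The changes were small. The 15 genes that rose had log2 fold changes of 0.27 to 0.96 and adjusted p from 5.07e-05 to 0.0211, and the other 26 lay between -0.13 and 0.21. Only Ndufa12 and Ndufs7 passed the test with a change of at least 1.5-fold, where 9.1% of all genes did so upwards and 9.69% downwards. Every KO library lay above every WT library in 15 genes, where 29.1% of all genes lay wholly above. Of these 15 genes, 13 were among those that rose. Every KO library lay below every WT library in 0 genes, where 28.7% of all genes lay wholly below. Levels spanned 6.30 to 731 TPM (mean over the 6 libraries), from Ndufb2 to Cox4i1.

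**Figure D2:**
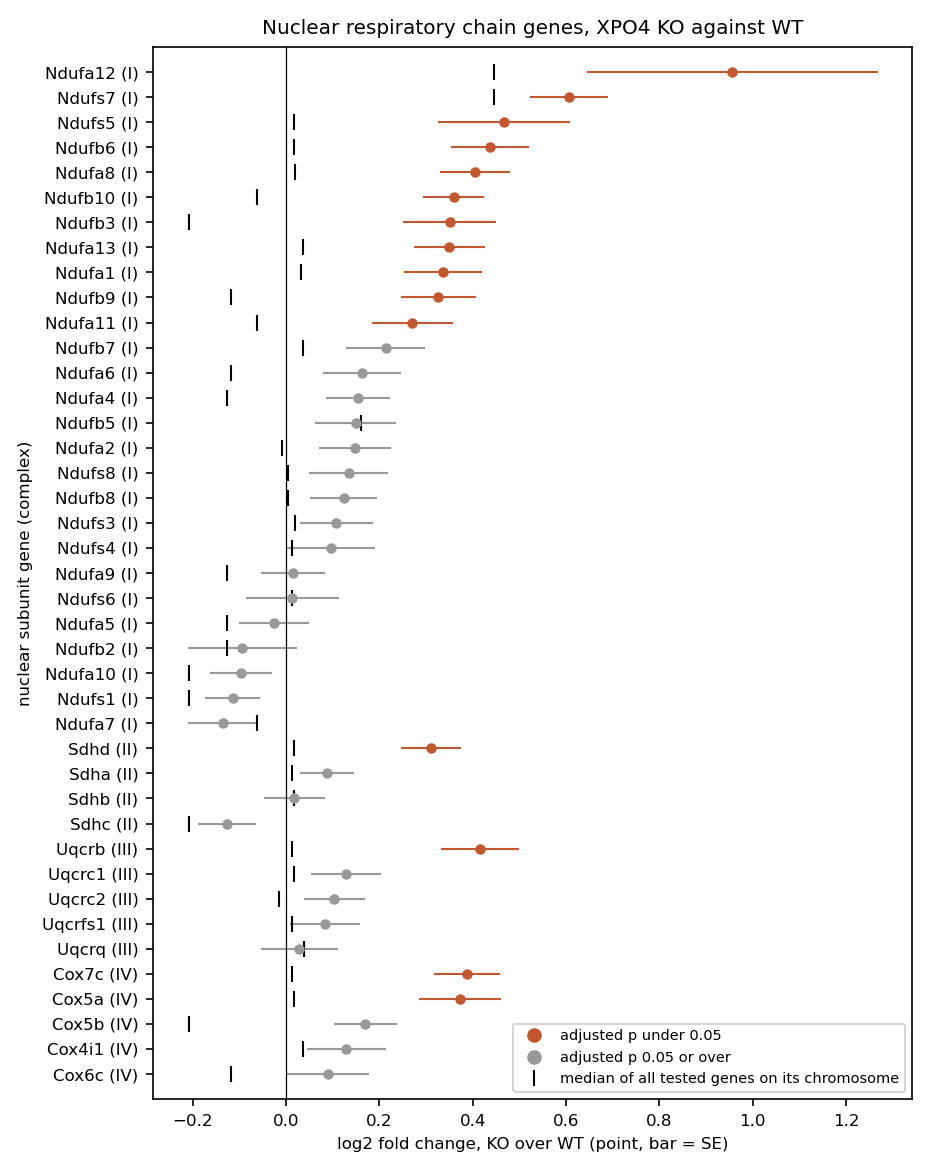
Log2 fold change of KO over WT for the 41 nuclear subunit genes (point, with its SE as the bar), ordered by complex; orange marks an adjusted p under 0.05 and the tick is the median of all tested genes on the same chromosome. The 15 orange points all lie to the right of 0, and 37 of the 41 points lie to the right of their tick.

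One library carried much of this. KO replicate 2 had the highest CPM of the 6 libraries in 35 of the 41 genes. Against the WT mean of each gene, the median log2 ratio was -0.07, 0.03 and 0.05 in the WT libraries and 0.09, 0.33 and 0.05 in the KO libraries. The medians of KO replicate 3 and WT replicate 3 were thus nearly alike. Without KO replicate 2, 14 genes rose and the median fell to 0.07. The same 14 genes remained, and Ndufa12 was lost. In that fit 3 genes also fell, Ndufa7 (log2 fold change -0.23, adjusted p = 0.000892), Ndufa10 (-0.17, adjusted p = 0.00831) and Sdhc (-0.18, adjusted p = 0.005). The count that fell therefore went from 0 to 3 when 1 library was left out, and 30 of 41 log2 fold changes were positive.

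**Figure D3:**
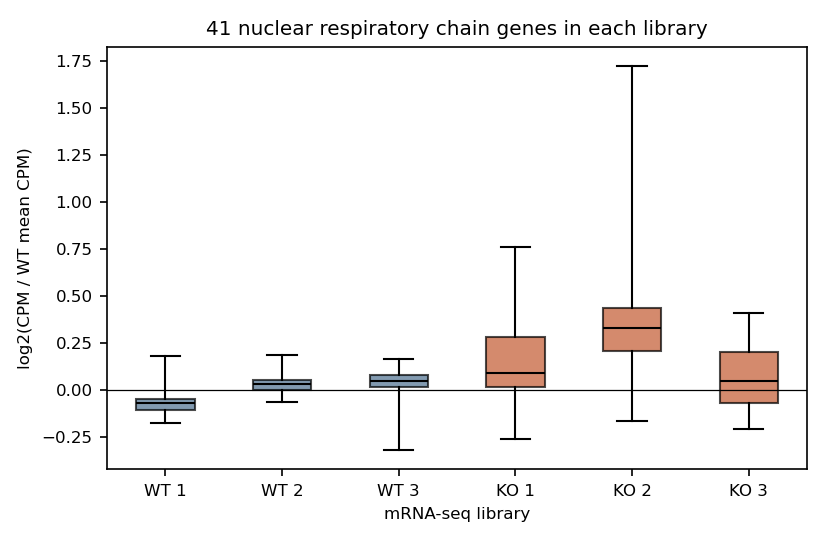
Log2 ratio of CPM to the WT mean CPM of the same gene (y axis) over the 41 nuclear subunit genes in each mRNA-seq library; the line is the median, the box the quartiles and the whiskers the full range. The median is 0.33 in KO replicate 2 and 0.09 and 0.05 in the other KO libraries.

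Complex I takes electrons from NADH and is the largest of the complexes. Of its 27 nuclear genes, 11 rose (40.7%) and 0 fell, with a median log2 fold change of 0.15. Over all tested genes, the shares were 25.1% and 23.6%. Of the 4 core subunits among the 27, those with counterparts in the bacterial enzyme (Ndufs1, Ndufs3, Ndufs7, Ndufs8), only Ndufs7 rose (25%). Of the 23 accessory subunits 10 rose (43.5%). Among these 10, Ndufa12, Ndufa13, Ndufb6, Ndufb9 and Ndufs5 have a near-identical stretch in another gene. With only 4 core genes, a difference between core and accessory subunits was not tested.

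Ndufs7 holds the last iron-sulfur cluster before ubiquinone. It was at 48.4, 49.2 and 54.3 CPM in WT and at 78.7, 85.5 and 67.2 CPM in KO, and rose by 0.61 on the log2 scale (SE 0.0834, adjusted p = 5.07e-05). All KO libraries were higher, and without KO replicate 2 the log2 fold change was 0.53.

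Ndufa12, an accessory subunit, was at 10.7, 10.0 and 7.55 CPM in WT and at 13.1, 31.1 and 10.4 CPM in KO (log2 fold change 0.96, SE 0.311, adjusted p = 0.0211). Only KO replicate 2 was far from the others, and the groups overlapped. The change was 0.33 without that library (adjusted p = 0.0604), and DESeq2 gave an adjusted p of 0.143. The processed pseudogene Gm15920, identical over 99.548% of 221 bases, held 649, 702 and 893 reads in WT against 927, 952 and 1083 in KO, more than the 166 to 554 reads of Ndufa12 itself. Since reads with several matches were not counted, reads that fit both the gene and this copy may be missing from both counts.

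Ndufs5, another accessory subunit, was at 10.2, 10.9 and 12.5 CPM in WT and at 19.0, 15.0 and 12.6 CPM in KO (log2 fold change 0.47, SE 0.142, adjusted p = 0.0152). Its lowest KO library barely exceeded its highest WT library. Without WT replicate 1, WT replicate 2 or KO replicate 1 the call was lost. The processed pseudogene BC002163, 99.373% identical over 319 bases, held 683, 781 and 873 reads in WT against 863, 1059 and 840 in KO. Ndufs5 itself held 203 to 340 reads.

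The other 8 complex I genes that rose were Ndufb6, Ndufa8, Ndufb10, Ndufb3, Ndufa13, Ndufa1, Ndufb9 and Ndufa11, all accessory subunits, with log2 fold changes of 0.44, 0.40, 0.36, 0.35, 0.35, 0.34, 0.33 and 0.27. Their KO libraries lay above all WT libraries except in Ndufa11, where KO replicate 1 was at 50.5 CPM and WT replicate 3 at 50.8 CPM. Ndufa13 is also known as GRIM-19, a protein that binds STAT3. Ndufa4, the most abundant of the 27 at 556 TPM and since assigned to complex IV, was at 212, 232 and 229.9 CPM in WT and at 235, 276 and 238 CPM in KO. The groups did not overlap, but the difference of 0.15 did not pass the test (SE 0.0684, adjusted p = 0.0794).

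Complex II, succinate dehydrogenase, also belongs to the citric acid cycle. Of its 4 genes only Sdhd, a membrane anchor subunit, rose. It was at 74.0, 81.1 and 79.3 CPM in WT and at 93.4, 105 and 92.6 CPM in KO (log2 fold change 0.31, SE 0.0647, adjusted p = 0.00144), without overlap. Sdhc, the other membrane anchor, was at 145, 154 and 152 CPM in WT and at 134, 149 and 130.1 CPM in KO (log2 fold change -0.13, adjusted p = 0.107). The flavoprotein gene Sdha and the iron-sulfur protein gene Sdhb had log2 fold changes of 0.09 and 0.02 and did not pass the test.

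Complex III passes electrons from ubiquinol to cytochrome c. Uqcrb, a small subunit near the ubiquinone site, was at 38.7, 41.01 and 45.5 CPM in WT and at 52.1, 62.3 and 52.6 CPM in KO (log2 fold change 0.42, SE 0.0841, adjusted p = 0.00114). All KO libraries were higher. Its exons overlap those of Gm10767, and the pseudogene Gm2962, 98.222% identical over 225 bases, had 8, 19 and 32 reads in WT against 64, 69 and 60 in KO. Among the 5 complex III genes chosen, Uqcrq was the most abundant at 218 TPM. It was at 120.3, 118 and 127 CPM in WT and at 113, 145 and 116 CPM in KO. Its log2 fold change of 0.03 (adjusted p = 0.798) was -0.09 without KO replicate 2. The core protein genes Uqcrc1 and Uqcrc2 and the Rieske iron-sulfur protein gene Uqcrfs1 lay at 0.13, 0.10 and 0.08 and did not pass the test.

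Complex IV, cytochrome c oxidase, reduces oxygen. Cox7c was at 114, 122 and 129 CPM in WT and at 158, 174 and 146 CPM in KO (log2 fold change 0.39, SE 0.0711, adjusted p = 0.000552). Cox5a was at 52.4, 62.3 and 61.6 CPM in WT and at 70.0, 86.5 and 71.9 CPM in KO (log2 fold change 0.37, SE 0.0877, adjusted p = 0.00324). Neither gene had overlapping groups. Cox4i1, a regulatory subunit, was at 731 TPM the most abundant of the 41 nuclear genes chosen here. It was at 313, 345 and 345 CPM in WT and at 360.4, 421 and 317 CPM in KO. It did not pass the test (log2 fold change 0.13, adjusted p = 0.228). Cox5b and Cox6c lay at 0.17 (adjusted p = 0.0527) and 0.09.

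**Figure D4:**
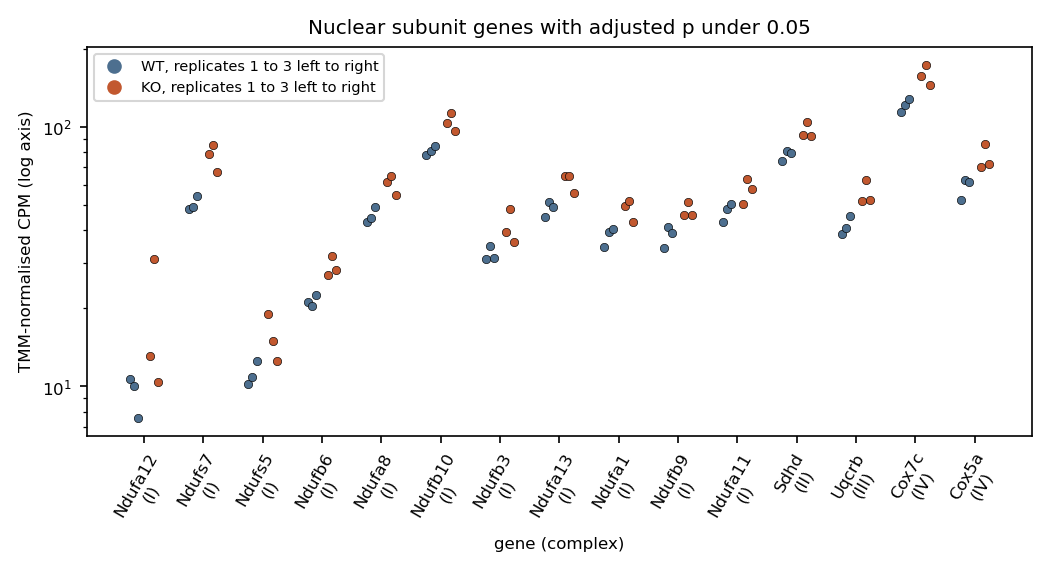
TMM-normalised CPM (log axis) of the 15 nuclear subunit genes that rose, one point per library, with replicates 1 to 3 of each genotype from left to right. KO points lie above all WT points in 13 genes, and the groups overlap in Ndufa12 and Ndufa11.

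Copies and position were examined because they bear on these counts. For 12 of the 41 genes, a stretch of at least 150 bases was at least 98% identical to a transcript of another gene, either a pseudogene or an overlapping neighbour: Cox4i1, Cox5b, Cox7c, Ndufa12, Ndufa13, Ndufb5, Ndufb6, Ndufb9, Ndufs3, Ndufs5, Uqcrb and Uqcrc2. Of the remaining 29 genes 8 rose, which is 27.6% and close to the 25.1% of all genes, while 0 fell. Their median was 0.12. The log2 fold change also varied by chromosome. The median of all tested genes was -0.21 on chromosome 1, 0.16 on chromosome 3 and 0.45 on chromosome 10, and the copy number of these chromosomes was not tested. Both of the members with the largest change, Ndufa12 and Ndufs7, lie on chromosome 10. The 237 tested genes within 10 Mb of Ndufs7 had a median of 0.45, against 0.61 for the gene itself. The 5 members on chromosome 1, Ndufb3, Cox5b, Ndufa10, Ndufs1 and Sdhc, had a median of -0.10. Outside chromosomes 1, 3 and 10, 12 of 33 nuclear subunit genes rose and 0 fell (36.4% and 0%), with a median of 0.13, against 22.7% and 23.5% of the tested genes there. Of all 41 genes, 37 lay above the median of their own chromosome, by a median of 0.157 on the log2 scale. Among the 12452 tested genes no longer than the longest nuclear subunit gene the median was 0.02, with 25.8% higher and 21.3% lower. Among the 2305 no longer than the median nuclear subunit gene it was 0.01, with 19.0% higher and 16.4% lower. Among the 10631 at or above the lowest TPM of a nuclear subunit gene it was 0.03, with 28.8% higher and 23.7% lower.

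The remaining nuclear subunits were examined as further members of the same complexes, and most of them rose. Over all tested genes, 25.1% rose and 23.6% fell. Of 11 tested further complex I genes 6 rose and 1 fell, with a median log2 fold change of 0.20. Ndufab1, the mitochondrial acyl carrier protein, was at 22.7, 24.97 and 24.7 CPM in WT and at 33.0, 40.3 and 39.3 CPM in KO (log2 fold change 0.64, adjusted p = 4.32e-05). Ndufv3 rose by 0.47 (adjusted p = 0.000106). Of 11 further complex III and IV genes with cytochrome c, 9 rose and 0 fell, with a median of 0.29. Uqcr11, a small complex III subunit on chromosome 10, rose from 44.2, 43.7 and 48.6 CPM to 78.0, 80.3 and 64.2 CPM (log2 fold change 0.71, adjusted p = 1.29e-05), and Uqcrh, the hinge protein that binds cytochrome c1, rose by 0.45 (adjusted p = 5.31e-05).

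Of 18 nuclear ATP synthase genes 12 rose and 1 fell, with a median of 0.28. Atp5d, the delta subunit of the catalytic part, was at 162, 175 and 170.2 CPM in WT and at 279, 328 and 275 CPM in KO (log2 fold change 0.80, adjusted p = 8.06e-07). It lies on chromosome 10. Atp5l, subunit g of the membrane part, rose by 0.76 (adjusted p = 2.9e-05). Atp5g2, a gene for the proton-carrying subunit c, fell, with 258, 272 and 267 CPM in WT and 189, 246 and 212 CPM in KO (log2 fold change -0.30, adjusted p = 0.00635). Over these 3 lists of further subunits, 27 of 40 tested genes rose (67.5%) and 2 fell (5%), with a median of 0.28. Beside this stand 25.1% and 23.6% of all tested genes. Near-identical copies and the medians of chromosomes, examined above for the 41 genes, were not examined for these 40 as a set. Without KO replicate 2 the counts that rose were 5, 8 and 11 and those that fell 1, 0 and 1.

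**Figure D5:**
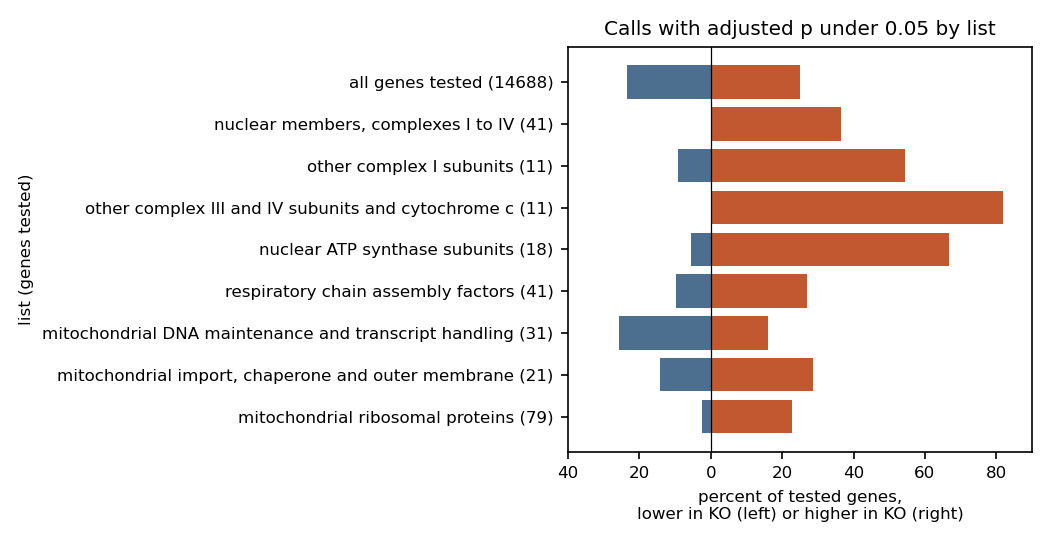
Percent of the tested genes of each list that were higher (orange, right) or lower (blue, left) in KO at an adjusted p under 0.05, with the number tested in brackets. The nuclear subunits of complexes I to IV, the further subunits and ATP synthase have few or no lower genes, while the genes for mitochondrial DNA maintenance and transcript handling have 16.1% higher and 25.8% lower, beside 25.1% and 23.6% of all genes.

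Genes that build or serve the chain were examined next, beside all tested genes, of which 25.1% rose and 23.6% fell. Of 41 assembly factors 11 rose and 4 fell, or 26.8% and 9.76% (median 0.12). Surf1, which acts in complex IV assembly, rose by 0.52 (adjusted p = 0.00119), whereas Cox17, the copper chaperone of complex IV, fell from 6.62, 5.28 and 6.46 CPM to 3.13, 3.20 and 2.93 CPM (log2 fold change -0.99, adjusted p = 0.000297). Of 31 genes of mitochondrial DNA maintenance and transcript handling 5 rose and 8 fell, or 16.1% and 25.8% (median 0.00). Polg2, the accessory subunit of the mitochondrial DNA polymerase, fell by 0.50 (adjusted p = 0.00289), and the mitochondrial translation elongation factor Tsfm rose by 0.48 (adjusted p = 0.000761). Of 79 mitochondrial ribosomal protein genes 18 rose and 2 fell (median 0.11), or 22.8% and 2.53%. Mrps6 had the largest change by the naming rule, from 36.4, 40.1 and 40.01 CPM to 81.8, 96.4 and 79.2 CPM (log2 fold change 1.14, adjusted p = 8.2e-08), and Mrpl42 rose by 0.50. Without KO replicate 2, 17 ribosomal protein genes rose and 9 fell, and the median was 0.03. Of 21 genes of import, chaperones and the outer membrane, with citrate synthase, 6 rose and 3 fell, or 28.6% and 14.3% (median 0.04). Citrate synthase (Cs), on chromosome 10, was at 243, 248.6 and 255 CPM in WT and at 380.3, 378 and 382 CPM in KO (log2 fold change 0.61, adjusted p = 4.69e-07). The ADP/ATP carrier Slc25a4 rose by 0.37 (adjusted p = 0.000323). Without KO replicate 2, 7 genes of the import list fell in place of 3, as did 8 assembly factors in place of 4.

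Many promoters of respiratory chain genes are known to hold sites for NRF1, ETS-family factors such as GABP, and YY1. RefSeq promoter windows of GRCm38.p6, 250 bases before to 50 bases after a start, were given for 32 of the 41 nuclear subunit genes, 34 windows in all. The NRF1 letters GCGCANGCG, on either strand, were in 11 windows (32.4%), against 6.25% of all 32851 windows and 12.8% of those of tested genes. The ETS letters CCGGAAG were in 6 windows (17.6%, against 8.86% and 17.04%), and the YY1 letters AANATGGC in 9 (26.5%, against 6.05% and 8.30%). At least 1 of the 3 motifs was in 22 windows (64.7%, against 18.6% and 32.5%). Among the 13 windows of genes that rose, 5 held the NRF1 letters, 2 the ETS letters, 2 the YY1 letters and 7 any of them. The 150 bases before the start are shown for the 4 genes that rose and whose NRF1 letters lie wholly within them, with each motif found in capitals. In Ndufa11 the letters are found at adjacent positions on both strands, and in Sdhd the later capitals are the ETS letters on the other strand.
Ndufa8, chr2:36049339-36049488, minus strand: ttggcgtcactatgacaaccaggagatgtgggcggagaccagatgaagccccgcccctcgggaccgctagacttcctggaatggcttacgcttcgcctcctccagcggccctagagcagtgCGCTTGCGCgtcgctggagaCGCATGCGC
Ndufa11, chr17:56717612-56717761, plus strand: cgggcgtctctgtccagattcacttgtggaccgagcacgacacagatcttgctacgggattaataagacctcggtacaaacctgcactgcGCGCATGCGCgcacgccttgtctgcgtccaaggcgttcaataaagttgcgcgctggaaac
Ndufs5, chr4:123718187-123718336, minus strand: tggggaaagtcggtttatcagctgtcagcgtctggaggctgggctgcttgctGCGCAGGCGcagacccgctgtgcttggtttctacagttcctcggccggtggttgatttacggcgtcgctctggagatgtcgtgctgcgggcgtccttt
Sdhd, chr9:50603850-50603999, minus strand: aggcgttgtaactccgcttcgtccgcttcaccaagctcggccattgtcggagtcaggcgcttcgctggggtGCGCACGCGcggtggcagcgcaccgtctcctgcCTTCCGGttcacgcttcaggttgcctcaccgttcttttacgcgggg

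The circRNA-seq libraries, made after RNase R digestion of linear RNA, gave a separate readout of the same genes. The deposited circRNA lists held 8 circles with both ends inside 6 of the 54 genes. They were sparse, with 0 to 12 junction reads per circle and library against 2189 to 81941 junction reads per library, so they are given as counts, with 2 libraries per group and no test. In the cytoplasm, the Ndufa10 circle at chr1:92452011-92470985 had 5 and 12 reads in WT against 1 and 3 in KO, and the Cox5a circle at chr9:57528956-57530362 had 1 and 0 reads in WT against 6 and 4 in KO. Ndufs1 gave a pair of cytoplasmic circles, of which chr1:63147120-63148571 had 1 and 1 reads in WT against 6 and 5 in KO and chr1:63164730-63169336 had 4 and 3 in WT against 3 and 1 in KO. The Uqcrc2 circle at chr7:120637662-120651384 had 6 and 6 reads in WT against 0 and 2 in KO in the cytoplasm, whereas the longer circle from the same start, ending at 120654061, was listed in whole cells, with 1 and 1 reads in WT against 10 and 3 in KO. The Sdhc circle at chr1:171135993-171145812 had 5 and 6 reads in whole WT cells and 1 and 1 in whole KO cells.

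Mitochondrial circles were listed in the nuclear libraries and in none of the 8 whole-cell and cytoplasmic libraries. One lay inside mt-Nd1 (chrM:2880-3310), with 1 and 1 junction reads in WT against 3 and 5 in KO. The other lay at chrM:335-523, outside the 13 genes, with 1 and 0 reads in WT against 2 and 5 in KO. The nuclear libraries were the shallowest, with 2189 and 2635 junction reads from WT cells against 3743 and 4383 from KO cells, and per 10000 junction reads the mt-Nd1 circle made up 4.57 and 3.795 from WT cells against 8.01 and 11.4 from KO cells. This circle was the only count found within the mitochondrial genes of the list. The 5 nuclear genes with circles had none in the nuclear libraries.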

How the data were processed

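For mRNA-seq, the authors mapped reads to mm10 with HISAT2 and deposited raw gene counts made by featureCounts, whose version was 2.0.0 per the file headers. The command in the headers sets no strand, so reads of antisense genes were not told apart by strand. Reads with several matches were not counted. For circRNA-seq, the authors deposited whole-number counts of junction reads from find_circ. Filters before deposition are not given in the sources used here, and counting limits cover counting error only.

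Gene symbols matched 55141 of 55401 identifiers. Genotypes were compared in 6 libraries with edgeR (version 4.0.16, R 4.3.3; quasi-likelihood test, TMM, filterByExpr) over all genes, adjusted by Benjamini-Hochberg and called under 0.05, after a test on simulated data. DESeq2 (version 1.42.0) was an alternative. The 54 genes, the lists and the tests were chosen with earlier results of these data known. Values are given in full for Xpo4 and, among the 41 nuclear genes, for up to 3 per complex with the largest change past the threshold. The same holds for the gene with the highest TPM among the 41 in each complex. It also holds for 2 genes of each further list with a mean count of at least 50. Copies were found with blastn against GRCm38.p6 (at least 95% identity to chrM, or 98% over 150 bases between transcripts). Circle starts were converted to count from 1. 1 gene that fell among the further complex I genes is not reported by name here.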

Additional observations from a re-analysis of the deposited data

How the results depend on the processing

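The nuclear subunit genes were refitted under 12 alternative settings. Leaving out 1 library at a time, 12 to 20 of them were higher and 0 to 3 lower, the median log2 fold change was 0.07 to 0.21, and 0 to 3 changed at least 1.5-fold, against 15, 0, 0.15 and 2 in all libraries. DESeq2 left 1 gene past 1.5-fold. The 3 lower genes appeared without KO replicate 2, the library that had the highest value in 35 of 41 genes. Ndufa12 was lost without WT replicate 2, WT replicate 3 or KO replicate 2 and with DESeq2. Without the 12 genes with a near-identical stretch elsewhere, a setting added after the data were seen, 8 were higher. The log2 fold changes of Uqcrq and Col3a1 changed sign without KO replicate 2 (to -0.088 and 0.0050, with ranges of -0.088 to 0.10 and -0.040 to 0.0050 over libraries left out), and neither passed the test there. The cause was not tested. Over all genes, 7151 were called, 6140 to 7398 with 1 library left out.

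Replicate numbers are shared by the genotypes, but deviations of same-numbered libraries correlated at 0.0615, 0.0359 and -0.0889, so the numbers share only a name. With the replicate block 17 members were higher and 0 lower (median 0.14), and 7124 of all genes were called. The tests and the ratio planned for the mitochondrial genes could not be run, since all were listed at 0. Of 504 values of single genes under these settings, 471 kept direction and side of the threshold. Circles, with 2 libraries per group and at most 12 reads per circle, were not tested between genotypes.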
